A study of Mus musculus with 8 samples.

Results

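The neuronal intermediate filament family was followed through injured mouse spinal cord at the level of its transcripts. Its 5 members are Nefl, Nefm and Nefh, which encode the light, medium and heavy neurofilament subunits, Ina, which encodes alpha-internexin, and Prph, which encodes peripherin. They were taken by symbol from the deposited table of 54532 genes, in which each symbol named 1 row, and all 5 were among the 16537 genes tested. Total RNA of spinal cord was sequenced 7 days after spinal cord injury in 4 samples of genotype Tia1f/f, called control, and 4 of genotype Tia1Nestin-CKO, called CKO. Both groups were injured, so the comparison is between genotypes after injury and holds no uninjured cord. By its name the CKO line deletes Tia1, which encodes an RNA-binding protein of stress granules, conditionally through Nestin, an intermediate filament gene active in neural progenitors. Cells outside the Nestin lineage, such as invading leukocytes, would keep the gene. The labels give no age and do not say that each sample came from its own mouse, so p-values may measure a spread that is partly technical.

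Neurofilaments are the main structural polymers of large axons. Light, medium and heavy subunits assemble together with alpha-internexin in central neurons, and their long phosphorylated tails space the filaments and set axon calibre. Peripherin is found in neurons that send axons out of the central nervous system, such as motor neurons and sensory neurons of the dorsal root ganglia, and its gene is known to be induced after axon injury. The light subunit leaks from damaged axons and is measured in blood and cerebrospinal fluid as a marker of axon loss. The proteins live far longer than their transcripts, so RNA levels are not filament levels.

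The genes lie on 4 chromosomes, and their positions in the deposited table equal those of GENCODE M21 on GRCm38 for 5 of 5. Nefl lies at chr14:68083863-68089095 on the plus strand and Nefm at chr14:68082590-68124846 on the minus strand. Nefh lies at chr11:4938754-4948064 on the minus strand, Ina at chr19:47014698-47025327 on the plus strand and Prph at chr15:99055174-99058978 on the plus strand. In this annotation the span of Nefm holds the whole of Nefl, on the other strand. The last exon of the longer Nefm transcript, Nefm-202, covers chr14:68082590-68084970, and the first exon of Nefl covers chr14:68083863-68085009. They share 1108 bases, which is 32.8% of the listed length of Nefl (3380 bases) and 19.2% of that of Nefm (5782 bases). A stretch of 30 bases from the middle of that overlap, chr14:68084402-68084431, is shown from both transcripts because it is why reads of the 2 genes cannot be fully told apart without strand:
Nefl-201: ggctggcagcggaagacgccactaacgaga
Nefm-202: tctcgttagtggcgtcttccgctgccagcc
The stretch is coding sequence in Nefl and lies after the stop codon in Nefm-202, and the transcripts are reverse complements of each other at 1108 of 1108 shared bases. Whether the authors' counting used strand, and whether it dropped or shared reads of that overlap, is not given in the sources used here. The shorter transcript Nefm-201, of 3334 bases in 3 exons, does not reach Nefl. Ina also shares 456 bases (14.1% of its exons) with the first exon of Nt5c2 on the other strand. No exon of another annotated gene overlaps Nefh or Prph.

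Promoter windows were at hand for only 2 of 5 members, Ina and Prph, and are shown for that reason. Each is the 250 bases before the RefSeq start on GRCm38.p6. The windows are chr19:47014431-47014680 and chr15:99054924-99055173, both on the plus strand, and TATAAA, the core of a TATA box, is in capitals:
Ina: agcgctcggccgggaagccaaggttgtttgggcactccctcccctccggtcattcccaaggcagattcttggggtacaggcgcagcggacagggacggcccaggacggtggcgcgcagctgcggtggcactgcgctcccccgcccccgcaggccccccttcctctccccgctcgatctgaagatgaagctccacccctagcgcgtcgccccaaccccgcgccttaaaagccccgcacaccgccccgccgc
Prph: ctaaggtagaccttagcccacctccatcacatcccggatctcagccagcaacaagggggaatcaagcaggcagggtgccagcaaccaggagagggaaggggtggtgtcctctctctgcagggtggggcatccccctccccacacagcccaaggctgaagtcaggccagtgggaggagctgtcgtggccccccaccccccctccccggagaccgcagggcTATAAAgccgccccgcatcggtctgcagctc
TATAAA begins 31 bases before the start of Prph and is not in these letters of Ina. On either strand it was in 12.4% of 32851 RefSeq promoter windows of that length. GGGCGG, a motif of Sp1-type factors, was in 32.7% of them. It occurred on the minus strand at 2 places in Ina and at 1 in Prph, and CCAAT (33.8% of windows) was in neither.

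Libraries held 14752733 to 17802884 counts, and Tia1 itself stood at 24.4 to 41.9 normalized CPM (counts per 1000000 after TMM scaling) in control and at 23.4 to 32.1 in CKO, so the groups overlapped. The library labelled control 1 stood apart from the others on the first principal component, at -94.97 against 5.73 to 21.51, and 18884 genes had counts in it against 22434 to 23414 in the others. Of all genes tested, 29.4% were lowest in control 1 and 15.2% were highest in control 2. Markers of sensory neurons were concentrated in 2 libraries, control 3 and CKO 1, as described with Prph. Values that moved most without one of these libraries are given beside the result.

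By level per length (FPKM as deposited), the light subunit led the family in every library. Nefl had 111 ± 57.9 FPKM (SD, n = 4) in control and 79.9 ± 10.2 in CKO. By its mean over 8 libraries, 95.7 FPKM, it ranked 462 among 14641 protein-coding genes tested. Nefh, at 36.3 ± 18.8 and 28.8 ± 3.44 FPKM, and Nefm, at 33.3 ± 20.9 and 28.8 ± 5.67 FPKM, followed at ranks 1449 and 1516. Each was above the other in 4 of 8 libraries, so these neighbours did not differ beyond their spread. Ina came next at 12.8 ± 7.22 and 13.2 ± 2.87 FPKM. Prph was lowest at 8.44 ± 4.33 and 8.87 ± 3.33 FPKM, below Ina in 7 of 8 libraries. The order of Nefm and Nefh depends on the length used for Nefm. With the counts of Nefm divided by the 3334 bases of Nefm-201, which was decided with the values known, Nefm exceeded Nefh in 7 of 8 libraries, by 1.61-fold on average. If reads of the shared bases were not counted, Nefl would stand on 2272 bases, at 166 ± 86.2 FPKM in control and 119 ± 15.2 in CKO.

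None of the 5 genes passed the test between genotypes. The light subunit gene Nefl had 360, 665, 219 and 281 normalized CPM in control 1 to 4 and 240, 302, 303 and 242 in CKO 1 to 4. Control 2 was far above the rest, control 3 was the lowest of all 8, and the groups overlapped. For CKO over control this gave -0.49 on the log2 scale (SE 0.30, 95% interval -1.14 to 0.17), an unadjusted edgeR p of 0.131, an adjusted p of 1.00 and an exact two-sided permutation p of 0.40. The interval spans a CKO level of 0.453 to 1.13 times that of control. As this is bulk tissue, fewer neurons or axons and less RNA per cell cannot be told apart.

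**Figure D1:**
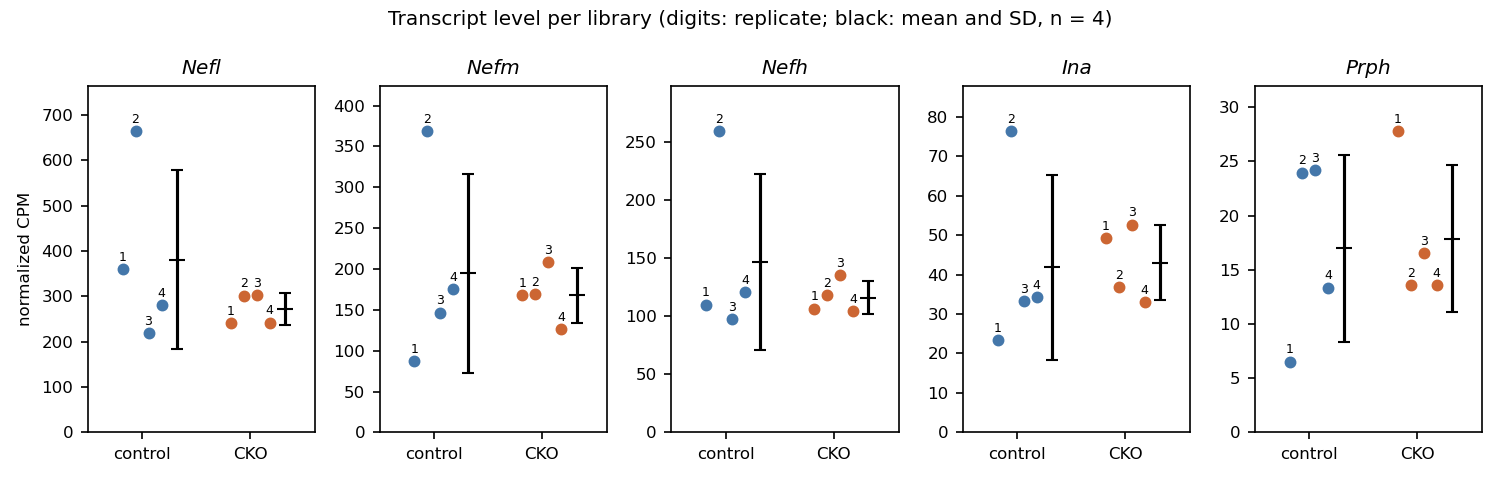
Normalized CPM (vertical axis, starting at 0) of each gene in the 4 control (blue) and 4 CKO (orange) libraries, with replicate numbers at the points and the mean ± SD in black. Control 2 is the highest point for Nefl, Nefm, Nefh and Ina, while CKO 1 is highest for Prph, at 27.8 CPM.

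The subunits with long tails had smaller log2 differences over all libraries. That order was not kept without control 2, at -0.07 for Nefl, 0.30 for Nefm and 0.09 for Nefh. Nefm, the medium subunit gene, had 87.5, 369, 146 and 176 normalized CPM in control 1 to 4 and 168, 169, 208 and 126 in CKO 1 to 4. Both the lowest and the highest value belonged to control. Its log2 fold change was -0.21 (SE 0.36, 95% interval -1.01 to 0.58; unadjusted edgeR p = 0.568, exact permutation p = 0.943). Nefh, the heavy subunit gene, had 110, 259, 97.3 and 121 normalized CPM in control 1 to 4 and 106, 118, 135 and 104 in CKO 1 to 4. Apart from control 2 its values all lay between 97.3 and 135. Its log2 fold change was -0.34 (SE 0.28, 95% interval -0.96 to 0.29; unadjusted edgeR p = 0.256, exact permutation p = 0.743).

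Alpha-internexin and peripherin were at near-equal group means. Ina had 23.4, 76.3, 33.2 and 34.2 normalized CPM in control 1 to 4 and 49.3, 36.8, 52.7 and 33.0 in CKO 1 to 4. CKO lay 0.04 log2 units above control (SE 0.32, 95% interval -0.68 to 0.75; unadjusted edgeR p = 0.908, exact permutation p = 0.714). Prph had 6.53, 24.0, 24.2 and 13.3 normalized CPM in control 1 to 4 and 27.8, 13.6, 16.5 and 13.6 in CKO 1 to 4. High and low libraries occurred in both groups, from 94 raw counts in control 1 to 494 in CKO 1. CKO lay 0.07 log2 units above control (SE 0.38, 95% interval -0.78 to 0.92; unadjusted edgeR p = 0.859, exact permutation p = 0.686). Each member had an adjusted edgeR p of 1.00, and 0 of 5 passed, as did 0% of all genes tested. At an unadjusted p under 0.05 the count was 0 of 5 members against 1.42% of all genes, and 0 of 5 had groups that did not overlap, against 1.19% (0 of 5 against 0.49% for groups apart and lower in CKO). The median log2 fold change of the members was -0.21, beside -0.01 over all genes. The 70 assignments of 8 libraries allow no permutation p below 0.0286.

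The group differences depended strongly on 1 library, control 2. Leaving it out made them smaller in size for Nefl and Nefh. They became larger in size for Nefm, Ina and Prph (Prph from 0.07 to 0.28). Control 2 exceeded the median of the other 7 libraries 2.37-fold in Nefl, 2.19-fold in Nefm, 2.36-fold in Nefh, 2.23-fold in Ina and 1.76-fold in Prph. It was the highest library for 4 of 5 members, against 15.2% of all genes tested. Without it, Nefl stood at 286 ± 70.8 CPM (SD, n = 3) in control against 272 ± 35.3 in CKO, which is -0.07 on the log2 scale (95% interval -0.51 to 0.36). Nefm then had a value of 0.30 (-0.27 to 0.87) and Nefh of 0.09 (-0.25 to 0.43). Ina had 0.50 (0.02 to 0.99), from 30.3 ± 5.96 CPM in the remaining control libraries, with an unadjusted edgeR p of 0.044 and an adjusted p of 1.00. Control 2 was the highest control library for Nefl, Nefm, Nefh and Ina, so leaving it out can only raise their values. The direction of these shifts was thus fixed in advance. Among CKO libraries the coefficient of variation was 13.0% for Nefl, 19.99% for Nefm and 12.2% for Nefh, against 51.9%, 62.6% and 51.5% in control.

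**Figure D2:**
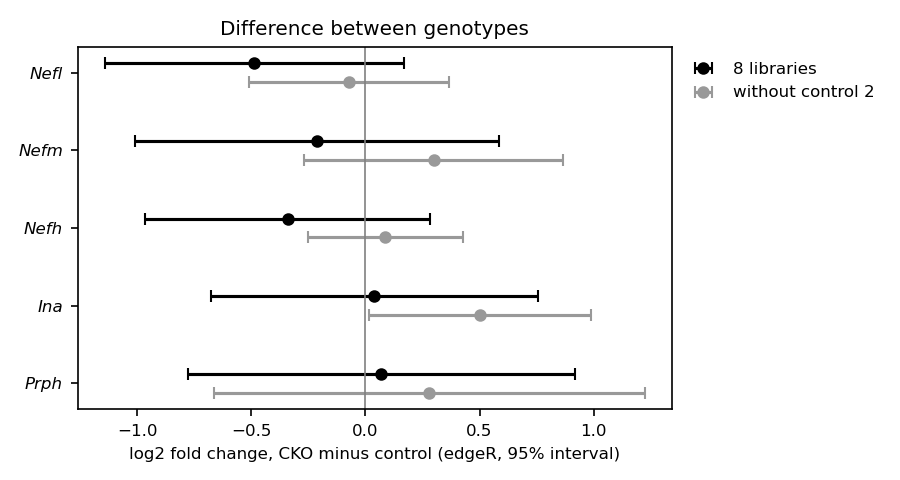
Log2 fold change of CKO against control (horizontal axis) with its 95% interval for each gene, from all 8 libraries (black) and without control 2 (grey). The intervals from all 8 libraries include 0 for each gene. Nefm and Nefh change sign without control 2, Nefl goes from -0.49 to -0.07, and the interval of Ina then runs from 0.02 to 0.99.

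The excess in control 2 was shared with other neuronal genes, though not to the same degree in every neuronal list. Of 13 genes of neurons in general, 10 were highest in that library, against 15.2% of all genes tested. Among them was Snap25, a synaptic fusion protein, at 940 CPM there against 579 ± 285 (SD, n = 4) over control and 412 ± 53.2 over CKO. Eno2, the neuronal enolase, had 283 CPM there, and Uchl1, a neuronal deubiquitinase, 460 CPM. All 5 tested genes of transmitter identity were highest in control 2, including the vesicular glutamate transporter gene Slc17a6 at 77.6 CPM and the glycine transporter gene Slc6a5 at 66.0 CPM. The members as a group lay 0.96 log2 units above their mean in control 2, against 0.56 for the neuronal genes, 0.81 for transmitter identity and 0.85 for cholinergic and motor neurons. Genes of sensory neurons were at 0.17 and those of injured neurons at 0.04. Endothelial genes were at -0.53, macrophage genes at -0.54, microglia genes at -0.46 and fibroblast genes at -0.40 in the same library. Other lists lay near their means there, with oligodendrocytes at 0.08, Schwann cells at 0.02, astrocytes at 0.01 and neutrophils at -0.08. The part of tissue make-up in these levels was not tested.

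**Figure D3:**
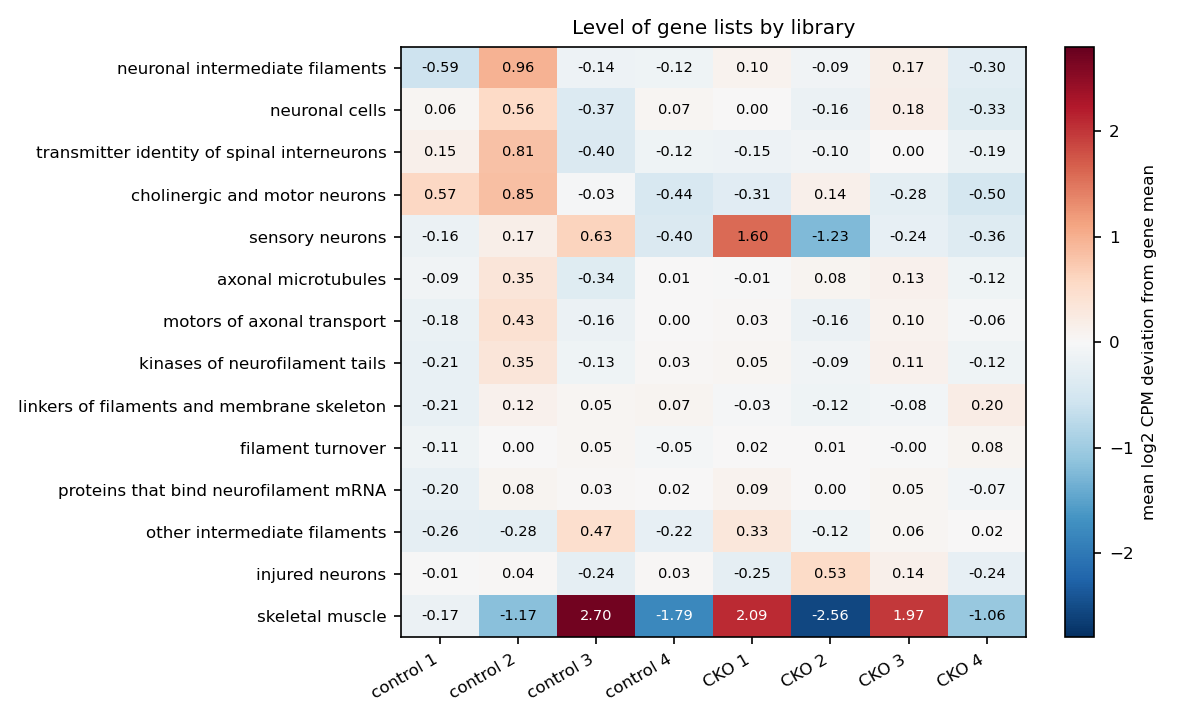
Mean log2 CPM of each gene list relative to its genes' means over the 8 libraries (colour and printed value), by library. Control 2 is the highest library for the neuronal intermediate filaments (0.96), neuronal cells (0.56) and transmitter identity (0.81). Sensory neurons are shown by the 3 genes that passed the filter on low counts, Avil, Pou4f1 and P2rx3. Their mean is highest in CKO 1 (1.595) and control 3 (0.63), and in control 3 only Avil was raised.

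Set against general neuronal RNA of the same library, no member passed the exact test between genotypes. Nefl lay 1.92 ± 0.34 log2 units (SD, n = 4) above the mean of the 13 neuronal genes in control and 1.71 ± 0.21 in CKO (difference -0.21, exact permutation p = 0.343). Nefm lay at 0.88 ± 0.67 and 1.00 ± 0.12 (p = 0.886 by the same exact test) and Nefh at 0.55 ± 0.32 and 0.48 ± 0.15 (exact p = 0.80). Ina lay at -1.28 ± 0.52 in control and -0.97 ± 0.13 in CKO (difference 0.31, exact permutation p = 0.343). Prph lay at -2.61 ± 0.95 and -2.27 ± 0.42 (difference 0.34, exact permutation p = 0.514). In this measure each member had a smaller SD among CKO than among control libraries. Control 1 was the lowest library for Nefm (-0.052), Nefh (0.27), Ina (-1.95) and Prph (-3.77). Without control 1 the difference was 0.089 for Ina, -0.17 for Nefh, -0.20 for Nefm and -0.051 for Prph. Without control 2 it was -0.061 for Nefl, 0.076 for Nefh, 0.33 for Nefm and 0.49 for Ina. The difference of Prph was also 0.72 without control 3 and 0.13 without CKO 1, and those of Nefl and Nefh were -0.13 and -0.011 without CKO 1.

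Heavy and light subunits kept a nearly fixed proportion. Per length, Nefh was 33.0% to 37.7% of Nefl in 7 libraries, a range that includes control 2, where both were over 2 times the median of the others. Control 1 lay apart at 25.8%. Nefm was 30.4% to 40.9% of Nefl in those 7 libraries and 14.2% in control 1. The group means of the log2 ratio were -1.61 ± 0.25 (SD, n = 4) in control and -1.47 ± 0.09 in CKO for Nefh, with an exact permutation p of 0.343, and the difference of 0.14 was 0.019 without control 1. For Nefm they were -1.81 ± 0.68 and -1.48 ± 0.21, with an exact permutation p of 0.486, and without control 1 the difference of 0.33 became -0.0073.

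Alpha-internexin varied relative to the light subunit more than Nefh did, with an SD of the log2 ratio over 8 libraries of 0.49 against 0.19. The SD of Nefm was 0.50, but it includes control 1, where Nefm was 14.2% of Nefl against 30.4% to 40.9% in the other 7 libraries. Ina was 6.79%, 11.98%, 15.9% and 12.7% of Nefl per length in control 1 to 4 and 21.4%, 12.7%, 18.1% and 14.2% in CKO 1 to 4. The 2 highest shares were in CKO, but the groups overlapped. The log2 ratio differed by 0.52 between CKO and control (exact permutation p = 0.143), and without control 1 by 0.28. Control 1 was thus a library of high Nefl and of low Nefm, Ina and Prph. It had 1.28 times the median of the other 7 libraries for Nefl and 0.931 times for Nefh. The same multiple was 0.636 for Ina, 0.518 for Nefm and 0.396 for Prph. The last 3 were at their lowest there, as were 29.4% of all genes tested.

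**Figure D4:**
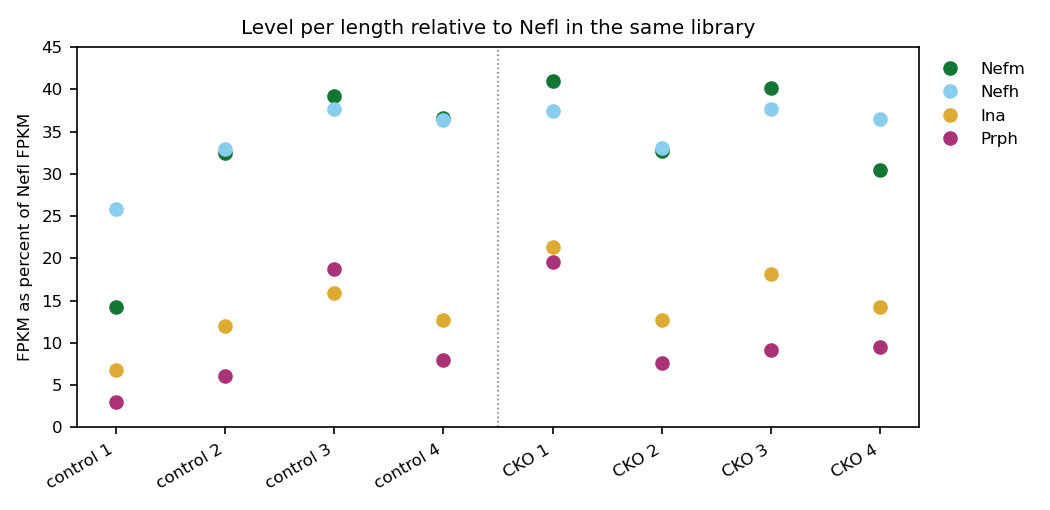
FPKM of Nefm, Nefh, Ina and Prph as a percent of the FPKM of Nefl in the same library (vertical axis, starting at 0). Nefh lies between 33.0% and 37.7% in 7 libraries, all 4 genes are lowest in control 1, and Prph is highest in control 3 (18.7%) and CKO 1 (19.5%).

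Peripherin followed another pattern. Prph was 18.7% of Nefl per length in control 3 and 19.5% in CKO 1, against 3.07%, 6.09% and 8.03% in control 1, 2 and 4 and 7.63%, 9.20% and 9.48% in CKO 2, 3 and 4. Control 3 and CKO 1 were also the 2 libraries lowest in Nefl, at 219 and 240 normalized CPM, which raises these shares. In normalized CPM, Prph was nearly as high in control 2 (24.0) as in control 3 (24.2). The log2 ratio differed by 0.55 between CKO and control, with an exact permutation p of 0.371. That difference was 0.14 without control 1, 0.26 without CKO 1 and 1.01 without control 3. Control 3 and CKO 1 had the highest counts of 7 of 9 sensory neuron genes. Scn10a, a sodium channel of pain-sensing ganglion neurons, had 54 counts in control 3 and 23 in CKO 1, 1 count in control 4 and 0 in the other 5, where a count of 0 allows up to 3. Scn11a, a related channel, had 34 and 36 counts there and 0 to 2 elsewhere. Avil, which encodes advillin of ganglion neurons, had 75 and 113 counts against 3 to 25 elsewhere. The other 2 genes were highest in CKO 1 but not raised in control 3. Pou4f1 had 88 counts in CKO 1 and 48 in control 3, against 21 to 53 elsewhere, and P2rx3 had 54 and 19, against 6 to 22. Over all 9 sensory genes, of which 3 passed the filter on low counts, the sum was 319 in control 3 and 355 in CKO 1 against 42 to 102 in the others. The sum of 102 was that of control 2, where Prph was nearly as high as in control 3. No gene of the list was at 0 in every library, and the summed level was 4.34 to 18.2 CPM in control and 2.59 to 19.9 CPM in CKO.

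Other tissue also moved with these libraries. The 4 skeletal muscle genes, led by the muscle actin gene Acta1, summed to 610 CPM in control 3, 348 in CKO 1 and 288 in CKO 3, against 14.02 to 101 in the others. Genes of cholinergic and motor neurons were divided. Slc5a7, the choline transporter, was highest in control 1 at 354 counts, the library lowest in Prph, and Chodl, a gene of fast motor neurons, was at 186 counts there and 212 in control 2. Isl2, a transcription factor gene of motor and sensory neurons, was highest in control 3 at 34 counts and CKO 1 at 27, against 1 to 13 elsewhere, and Isl1 was highest in CKO 1 at 13 counts. Without control 3 and CKO 1, left out with the values known, the log2 fold change of Prph was -0.0065 (95% interval -0.88 to 0.86). The part of sensory neuron or muscle RNA in the level of Prph was not tested.

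**Figure D5:**
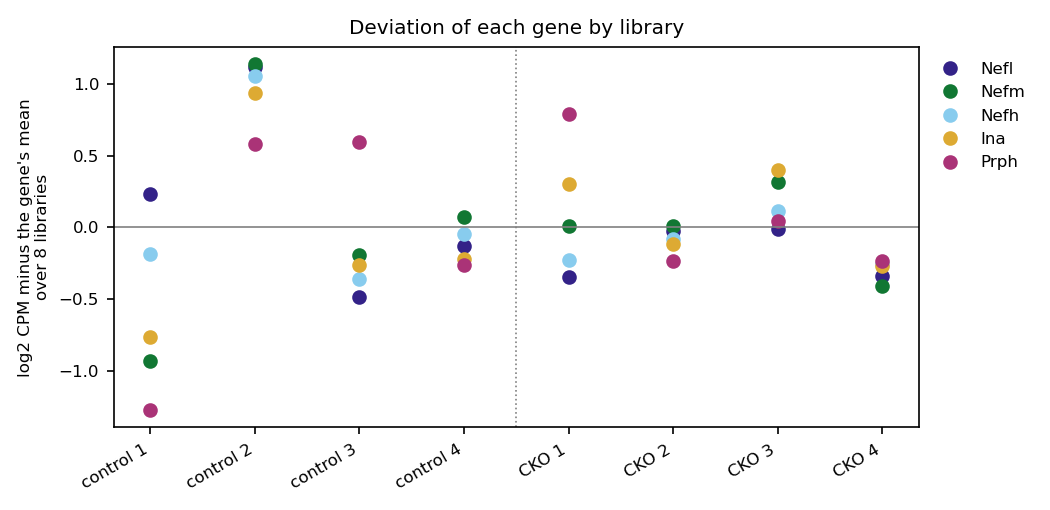
Log2 CPM of each gene minus its own mean over the 8 libraries (vertical axis), by library. All 5 genes lie above their means in control 2, spread widely in control 1 (from -1.28 for Prph to 0.23 for Nefl), and Prph lies above the other members in control 3 (0.59) and CKO 1 (0.79).

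Across the 8 libraries the pairs of members varied together to unequal degrees. The p-values are against no relation, and the share of all gene pairs that reach such r was not taken. Of all genes tested, 29.4% were lowest in control 1 and 15.2% highest in control 2. Genes outside the family could be closer to a member, as Timm17a, the closest of 10603 genes to Ina, with r = 0.98. Of 10 pairs, Nefm and Ina had the closest relation (Pearson's r = 0.94, exact permutation p = 0.0011, adjusted over the pairs 0.011; Spearman's rho = 0.90, adjusted p = 0.046 by the same exact test). It was 0.72 without control 1 and control 2, the libraries furthest from the median of Nefm. Nefl and Nefh had r = 0.93 (exact permutation p = 0.0100, adjusted 0.037) and rho = 0.81 (adjusted exact p = 0.073). Without control 2 and control 3, the libraries furthest in Nefl, r was 0.39. It was 0.60 without control 2 alone, 0.99 without control 1 alone and 0.93 without control 1 and control 2. Nefm and Nefh had r = 0.84 (adjusted exact permutation p = 0.037), rho = 0.83 (adjusted exact permutation p = 0.073) and 0.84 without the 2 furthest libraries. Nefh and Ina had r = 0.78 (adjusted exact p = 0.049), rho = 0.69 (adjusted exact p = 0.17) and -0.0091 without their 2 furthest. Nefl and Prph had r = -0.04 (exact permutation p = 0.921) and rho = -0.40 (exact permutation p = 0.327), and r = -0.79 without control 2 and control 3. The other 5 pairs had r of 0.26 to 0.72 (adjusted exact permutation p of 0.079 to 0.556) and rho of -0.14 to 0.60 (adjusted exact permutation p of 0.26 to 0.752). Without their 2 furthest libraries r was -0.50 to 0.39 in these.

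Genes with the most similar pattern were sought among 10603 other genes of at least 10 CPM, by Pearson's r of log2 CPM over the same 8 libraries, as a description. Nefl was nearest to Eapp (r = 0.995), Ttc33 (0.98), the imprinted gene Peg3 (0.98), the potassium channel subunit gene Kcnab1 (0.98) and Bend6 (0.97), with r of 0.88 to 0.98 without control 2. Nefm was nearest to the ubiquitin ligase gene Pja1 (0.99), Arl16 (0.98), Spryd3 (0.98), Nsg1, a gene of neuronal endosomes (0.98), and the calmodulin gene Calm3 (0.98). Nefh was nearest to Napb, a SNARE cofactor of neurons (0.98), Apba1 (0.98), Lrrc49 (0.97), Cabp7 (0.97) and Lamp5 (0.96), with r of 0.77 to 0.90 without control 2. Ina was nearest to the mitochondrial import gene Timm17a (0.98), the tubulin gene Tuba4a (0.97), the seryl-tRNA synthetase gene Sars (0.97), Mrps10 (0.97) and Pja1 (0.96). Prph was nearest to St6galnac6 (0.96), Ccm2 (0.95), Atf5 (0.94), Thoc3 (0.93) and Flot2 (0.93), with 0.83 to 0.90 without control 1. Pja1 is the name that 2 members share, Nefm and Ina.

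Genes that act on or beside neurofilaments were also without calls, at 0 passing in every list. Of 16 genes of axonal microtubules 9 had a higher and 7 a lower log2 fold change in CKO, with a median of 0.02, against 51.9% lower among all genes tested. The tubulin genes Tuba1a and Tubb4a, the latter also a gene of oligodendrocytes, had 905 ± 164 and 513 ± 85.3 CPM (SD, n = 4) in control. Their CKO levels were 908 ± 99.1 and 635 ± 95.5 CPM. The microtubule-destabilizing stathmin gene Stmn1 had 272 ± 82.3 and 306 ± 55.9 CPM. Control 2 was highest for 7 of these 16 genes, against 15.2% of all genes tested, and the list lay 0.35 log2 units above its mean there.

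Motors that carry neurofilaments along axons had group means close to each other. Of 9 genes 3 were higher and 6 lower, and the median difference was -0.03 log2 units. Kif5a, the neuronal kinesin whose loss in mice makes neurofilaments pile up in cell bodies, had 699 ± 232 CPM (SD, n = 4) in control and 701 ± 181 in CKO. Kif5b, the kinesin found in all cells, had 605 ± 213 and 523 ± 76.9 CPM, and Kif5c, which had the smallest p, 312 ± 124 and 268 ± 7.37 CPM. The kinesin light chain gene Klc1 had 300 ± 85.9 and 310 ± 32.6 CPM. Kif5a was at 1037 CPM in control 2.

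Kinases and regulators of the tails gave 4 higher and 6 lower genes of 10, with a median of -0.07. Mapk3, which encodes ERK1, had 289 ± 66.4 CPM (SD, n = 4) in control and 348 ± 10.7 in CKO, or 0.27 log2 units more (SE 0.18). It was the 1 gene of the list whose groups did not overlap, against 1.19% of all genes, and its unadjusted edgeR p was 0.168. Gsk3b had a log2 fold change of -0.17 and Cdk5r1, the p35 activator of the tail kinase Cdk5, of -0.33 (SE 0.22).

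No remaining partner passed the test. Of 7 linkers of filaments and membrane skeleton 3 were higher and 4 lower, with a median of -0.01, and the spectrin genes Sptbn1 and Sptan1 had log2 fold changes of 0.0072 and 0.09. Dst, the gene of the linker dystonin, was at 0.10 and the ankyrin gene Ank2 at -0.20. Of 7 turnover genes 5 were higher and 2 lower, with a median of 0.08. Trim2, a ubiquitin ligase for the light subunit in mice, had 160 ± 65.2 and 125 ± 4.92 CPM (SD, n = 4), while the calpain genes Capns1 and Capn2, whose proteases cut neurofilaments, had log2 fold changes of 0.20 and 0.15. Of the 3 genes of proteins known to bind neurofilament mRNA, Tardbp was at -0.17. Arhgef28, known from the human light subunit mRNA, was at 0.19.

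Other intermediate filament genes ranged from far above to below the neuronal ones in CPM. Gfap, the filament of astrocytes, had 10491 ± 1890 CPM (SD, n = 4) in control and 10206 ± 1850 in CKO, and Vim, the vimentin gene, 1492 ± 319 and 1725 ± 146. Of 8 such genes tested, 4 were higher and 4 lower in CKO, with a median of 0.08. The nuclear lamina genes Lmna and Lmnb1, which are not confined to one cell type, were at 107 and 27.4 CPM in control and had log2 fold changes of 0.19 and 0.31. None of the 8 was highest in control 2, against 15.2% of all genes tested, and the list lay at -0.28 there.

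No gene of the neuronal lists passed. Among the 13 genes of neurons in general 11 had lower values in CKO (median -0.20), and Slc12a5, the chloride exporter KCC2, had 61.0 ± 12.7 CPM (SD, n = 4) in control and 45.2 ± 5.67 in CKO (log2 fold change -0.43, SE 0.17). Without control 2 the mean difference of this list was 0.0067 instead of -0.15. All 5 transmitter genes were lower, with a median of -0.34, and Gad1, the main GABA synthesis gene, was at -0.34. Their mean difference was 0.012 without control 2. Of 5 tested cholinergic and motor neuron genes 4 were lower, with a median of -0.39, among them Slc5a7 (-1.22), Chodl (-0.85) and Slc18a3 (-0.39), and without control 2 their mean difference was -0.27 instead of -0.48. Slc18a3 lies within an intron of Chat. Of 3 sensory genes 2 were higher, with P2rx3 at 0.31, Avil at 0.36 and Pou4f1 at -0.10. Their median was 0.31 while their mean difference in log2 CPM was -0.12. Of 7 genes of injured neurons 4 were higher, with a median of 0.13, and Basp1 was at 0.13, Jun at 0.15 and Atf3 at -0.06.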

How the data were processed

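For 8 libraries the authors deposited raw counts of reads by gene and, in a second table, FPKM. Per the labels, TRIzol RNA went into NEBNext Ultra RNA libraries. Per the submitters' processing notes, DESeq2 1.20.0, featureCounts 1.5.0-p3, HISAT2 2.0.5, fastp and CASAVA 1.8 were used, in roles not given, with a human genome build, while the deposited identifiers and positions are of mouse. Deposited FPKM equal the count per listed gene length and per library constant, within a relative deviation of 5.1e-15 for genes over 200 counts.

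Counts were tested with edgeR 4.0.16 (quasi-likelihood F test, robust=TRUE, TMM, genotype as the only term) in R 4.3.3 over 16537 genes kept by filterByExpr (minimum count 10, minimum total 15). Benjamini-Hochberg adjustment covered all genes tested, with a threshold of 0.05. The standard error is the log2 fold change over the square root of F. Log2 CPM have a prior count of 2. The edgeR script was first tested on simulated counts. Single values were compared by exact two-sided permutation.

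The members and 21 other lists were chosen with earlier results of these data known. In each list the 3 most abundant genes and the gene of smallest p were to be named, and for each member the 5 genes of most similar pattern. Some genes that this rule names are not reported here. Other genes were chosen after their values were seen. Of the members, 2 had promoter windows in the RefSeq table. Alternatives were other scalings and filters, each library left out, a replicate block, DESeq2 1.42.0, limma 3.58.1 on counts (voom) and on log2 FPKM, and other references for the ratios. Intervals for counts of 0 cover counting error only.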

Additional observations from a re-analysis of the deposited data

Results flagged for a closer look

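The normalized CPM of Nefh in control 2, 259, lay far from the other control libraries, the next being 121 and the lowest 97.3. It was the 1 value so marked by Dixon's test among 28 sets of 4 libraries examined, and chance marks about 1 set in 20.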

How the results depend on the processing

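The count of genes passing was 0 under each alternative run, except that DESeq2 called 1 gene, Saa3. At an unadjusted p under 0.05 edgeR had 234 genes, DESeq2 466, limma-voom 198 and limma on log2 FPKM 245 or 256. EdgeR had 755 without a filter, 219 with a minimum of 1 CPM, and 196 to 1104 with a library left out. No member passed under any alternative, and of 213 values 191 kept their direction and their side of the threshold. For part of these the side was fixed in advance. Neither sign flips of 4 pairs nor the exact test without control 3 and CKO 1 can give a p under 0.05. With each library left out in turn, the log2 fold change ran from -0.67 to -0.07 for Nefl, -0.45 to 0.30 for Nefm, -0.49 to 0.086 for Nefh, -0.16 to 0.50 for Ina and -0.22 to 0.29 for Prph. Nefl had an unadjusted edgeR p of 0.028 without control 3 (adjusted p 0.757), where 1104 genes were under 0.05. The ratio of Nefm to Nefl ran from -0.0073 to 0.48, and relative to neuronal genes Nefm ran from -0.20 to 0.33, Nefh from -0.17 to 0.076 and Prph from -0.051 to 0.72. Without both control 1 and control 2, chosen after the data were seen, the log2 fold changes reversed to 0.12 for Nefl, 0.054 for Nefm, 0.083 for Nefh and -0.079 for Prph. Ina kept its sign there, at 0.34. Without control 3 and CKO 1 they reversed to -0.13 for Ina and -0.0065 for Prph. Nefl, Nefm and Nefh kept their sign in that run, at -0.62, -0.33 and -0.45. Nefm relative to axonal microtubule genes differed by -0.074. Where a value reversed, the cause was not tested. The replicate numbers are not known to pair the samples, and same-numbered samples deviated with r of -0.33 to 0.05; with the replicate block the log2 fold changes were -0.37, -0.04, -0.23, 0.16 and 0.13 for Nefl, Nefm, Nefh, Ina and Prph, with 0 genes passing and 140 under 0.05 unadjusted. Sign flips of 4 pairs allow no p below 0.125. Standard errors of 0.28 to 0.38 log2 units limit what these libraries could show.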

Other observations

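Markers of other cells were read in the same libraries, and no gene of these lists passed. Of 6 oligodendrocyte genes 2 were higher and 4 lower in CKO (median of the log2 fold changes -0.07, mean difference in log2 CPM 0.07), and Mobp and Cnp, of central myelin, were at 0.36 and -0.09. All 5 Schwann cell genes were lower, with a median of -0.48, among them Prx (-0.48) and Ncmap (-0.71), and they summed to 140 to 195 CPM in control and 84.7 to 167 in CKO. Ncmap was the 1 gene of that list whose groups did not overlap, against 1.19% of all genes, with an unadjusted edgeR p of 0.0042. Of 5 astrocyte genes 4 were lower, with a median of -0.22, led by Aqp4 (-0.59), Slc1a2 (-0.22) and Gja1 (-0.29). Of 4 microglia genes 3 were lower, with a median of -0.13, and Csf1r, Cx3cr1 and Tmem119 were at -0.07, -0.19 and 0.20. Of 4 macrophage genes 3 were higher, with a median of 0.12, with Lyz2 at 0.14, Cd68 at 0.30 and Adgre1 at -0.06. All 4 neutrophil genes were higher, with a median of 0.78, and S100a8, S100a9, Ltf and Mpo were at 0.43, 0.84, 0.91 and 0.72, while the list summed to 192 to 604 CPM in control and 395 to 1365 in CKO, the highest being CKO 2. All 4 endothelial genes were higher (median 0.25), with Cdh5 at 0.18, Cldn5 at 0.33 and Pecam1 at 0.45, and all 4 fibroblast genes were lower (median -0.18), with Col1a1 at -0.17, Col1a2 at -0.24 and Dcn at -0.19. Of 4 skeletal muscle genes 2 were higher and 2 lower, with a median of 0.07.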
